A study of Drosophila melanogaster with 15 samples.

Results

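Antennae of *fruLexA/fru4-40* males were compared directly with antennae of *Or67dGAL4* males, gene by gene, in 5 of the 15 RNA-seq libraries of the series. The 2 *fruLexA/fru4-40* libraries (replicates 2 and 3) and the 3 *Or67dGAL4* libraries were chosen by genotype alone, and all 10358 of 17490 genes that passed a filter on low counts were tested. Each library was made from 180 antennae of 90 males that were 7 days old and had been kept in vials of 25 to 30 males, so each is a pool of animals and neither mutant was housed alone. The *fruLexA/fru4-40* males were w+ and carried an allele with LexA at the start of the FruM coding sequence over the deletion allele *fru4-40*. The *Or67dGAL4* males were homozygous for GAL4 in place of *Or67d* and also homozygous for UAS-mCD8GFP. The lines therefore differ in transgenes and in genetic background as well as in the mutated gene, and these differences cannot be told apart. The other groups, used for the fit and as points of reference, were wild-type *w1118* males housed in groups (*w1118* GH) or singly (*w1118* SH) and group-housed *Or47b1* males, which also carried Or47b-GAL4 and UAS-mCD8GFP, with 3 libraries each. Another *fruLexA/fru4-40* library (replicate 1) carried a quality warning and was not used in the study. It was left out of the main fit and serves here as a check of direction and in an alternative fit of all 15 samples.

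Fruitless is a transcription factor whose male-specific forms, FruM, are made in a small set of neurons that shape courtship. In the antenna FruM marks the olfactory neurons that express Or67d, Or47b or Ir84a. Or67d, in the trichoid sensilla at1, is the receptor for the male pheromone cis-vaccenyl acetate, and its neurons also use the binding protein Lush and the membrane protein Snmp1. In *Or67dGAL4* the receptor is missing from FruM-positive neurons, while in *fruLexA/fru4-40* the receptor gene is intact and the transcription factor is missing from these neurons, so the comparison asks how antennae that lack a pheromone receptor differ from antennae that lack the male regulator of the same cells.

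The libraries in the fit held between 8570425 and 14908299 counts, and replicate 1 held 5907543. Levels are given as RPKM, counts scaled by exon length and by library size after TMM normalization, and differences as log2 fold changes of *fruLexA/fru4-40* relative to *Or67dGAL4* with their standard error (SE). Antennal markers were abundant in both mutants, and the summed level of 8 olfactory neuron markers was 2565 and 2596 RPKM in *fruLexA/fru4-40* against 2426 to 2744 RPKM in *Or67dGAL4*. Markers of other body parts were present at lower levels that varied between libraries of 1 genotype. The summed muscle list ran from 65.3 to 258 RPKM in *fruLexA/fru4-40* and from 109 to 268 RPKM in *Or67dGAL4*, and the fat body list from 18.5 to 40.2 and from 11.9 to 45.9 RPKM. The opsin gene *ninaE* was at 1.03, 0.119 and 12.2 RPKM in the *Or67dGAL4* libraries and at 2.26 and 17.6 RPKM in the *fruLexA/fru4-40* libraries. The study calls the libraries of a genotype biological replicates and the labels do not say whether they were separate collections, so p-values measure the spread between these pools, which may in part be technical.

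The targeted receptor gene followed the labels. *Or67d* (chromosome arm 3L, 10273204 to 10274624, dm6) was at 0.927, 0.0802 and 0.801 RPKM in *Or67dGAL4* and at 52.3 and 37.3 RPKM in *fruLexA/fru4-40*, with 44.6 RPKM in *fruLexA/fru4-40* replicate 1 and a mean of 74.5 RPKM in *w1118* GH. The 2 mutants did not overlap (log2 fold change 6.26, SE 0.48, edgeR adjusted p = 4.2e-08). Total counts of *fru* (3R, 18414273 to 18545586) did not separate the mutants. They were 3.87, 4.97 and 4.79 RPKM in *Or67dGAL4* and 3.73 and 3.85 RPKM in *fruLexA/fru4-40* (log2 fold change -0.26, SE 0.14, adjusted p = 0.21), and counts summed over the gene cannot show the male-specific exon. Replicate 1 had 10.7 RPKM, and the log2 fold change of *fru* was 0.43 when it entered the fit. *dsx*, the other transcription factor at the end of the sex determination pathway, was at 3.24 to 4.79 RPKM and 3.51 to 4.13 RPKM (adjusted p = 0.51). The eye colour gene *w*, an ABC transporter gene that is also the usual marker of fly transgenes, was at 235, 211 and 179 RPKM in *Or67dGAL4* and at 5.59 and 7.40 RPKM in *fruLexA/fru4-40* (log2 fold change -5.01, SE 0.17, adjusted p = 2.8e-08). It was near 0 in both *w1118* groups and averaged 49.0 RPKM in *Or47b1*.

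At an adjusted p below 0.05 in edgeR's quasi-likelihood test, 2506 genes changed (24.2% of those tested). Of these, 1357 were higher in *fruLexA/fru4-40* (13.1% of tested genes) and 1149 were lower (11.1%). Most differences were small, since 1934 of the changed genes (77.2%) differed by less than 2-fold, 266 differed by at least 4-fold and 124 by at least 10-fold. The balance of higher and lower genes depended on the scaling. With RLE size factors in place of TMM, 1105 genes were higher and 1439 lower, so the share of higher genes moved from 54.2% to 43.4%. The median log2 fold change of all tested genes was 0.03 under TMM and -0.02 under RLE. Leaving out *fruLexA/fru4-40* replicate 2 reduced the count to 974 genes and leaving out *Or67dGAL4* replicate 2 reduced it to 1595, and 712 genes (28.4%) passed in each of the 5 fits that leave out 1 library. In the plot of change against level the largest differences sit among genes of low to middle abundance.

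**Figure D1:**
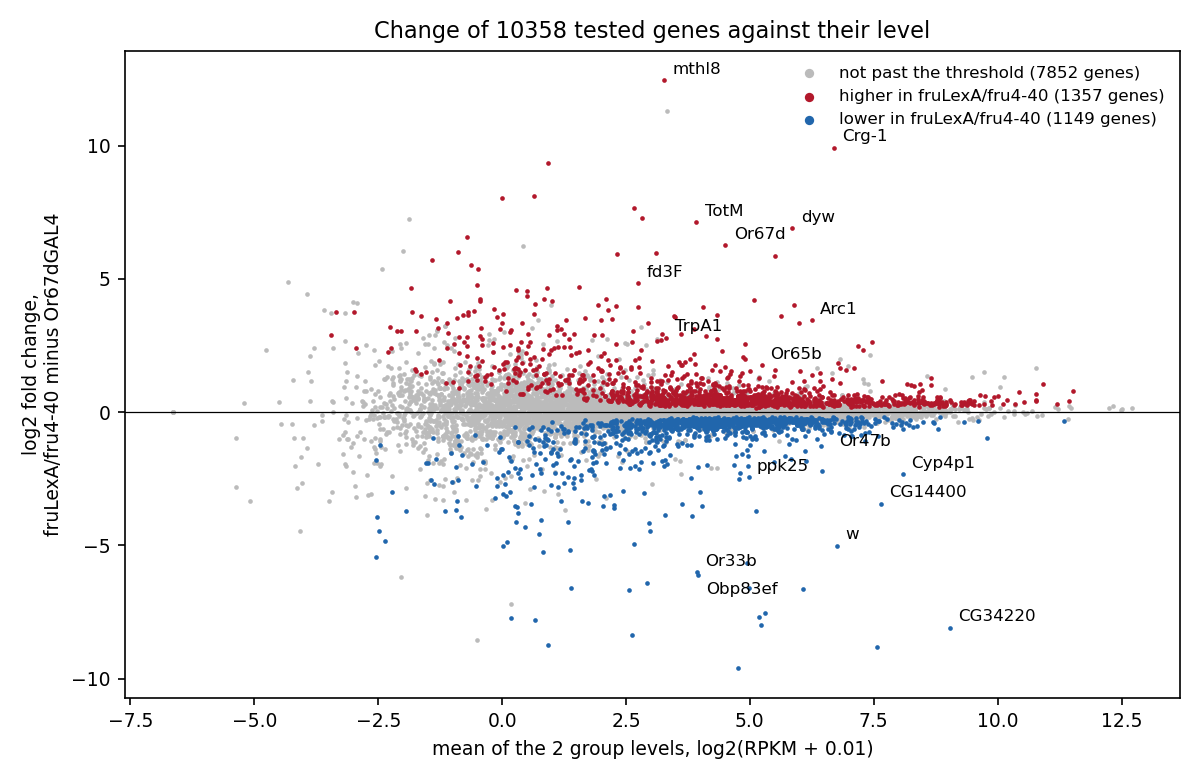
Log2 fold change of each of the 10358 tested genes (vertical axis) against the mean of the 2 group levels as log2(RPKM + 0.01) (horizontal axis), with 1357 genes higher and 1149 lower in *fruLexA/fru4-40*. The extreme points, such as *mthl8*, *Crg-1*, *CG34220* and *Obp83ef*, lie far outside the band that holds most changed genes.

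Large changes kept their direction in the unused replicate 1 more often than small ones. It was set against the same 3 *Or67dGAL4* libraries, so both differences share their reference. Among the genes that changed by at least 10-fold, 123 of 124 (99.2%) had the same direction in replicate 1, and among those between 4-fold and 10-fold, 132 of 142 (93.0%). Among those between 2-fold and 4-fold it was 259 of 306 (84.6%). Among the 1934 genes that changed by less than 2-fold it was 951 (49.2%), below the 53.0% found over all tested genes. Replicate 1 also had a lower depth, and it had 71.4 RPKM of the neuronal gene *elav* where the 5 compared libraries had 19.7 to 31.7 RPKM. The part of either in these shares was not tested.

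**Figure D2:**
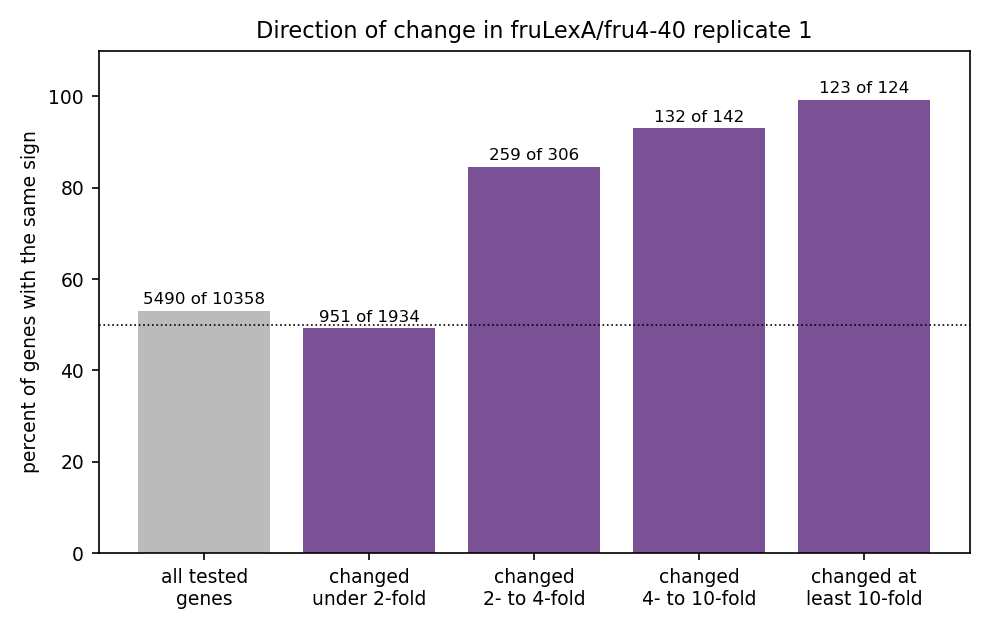
Percent of genes (bars, with the number of genes above each) whose difference from the *Or67dGAL4* mean had the same sign in *fruLexA/fru4-40* replicate 1 as in replicates 2 and 3, by size of the change. The share is 99.2% for changes of at least 10-fold and 49.2% for changes under 2-fold, where the dotted line marks 50%.

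The genes most strongly higher in *fruLexA/fru4-40* included genes that were silent in *Or67dGAL4*. *mthl8* (3L, 22428 to 26308), a G-protein coupled receptor gene of the methuselah family, had no read in any *Or67dGAL4* library and was at 20.6 and 17.8 RPKM in *fruLexA/fru4-40*, which is at least 185-fold higher against a floor of 3 counts per library (adjusted p = 3.0e-07). It was also at 20.7 RPKM in replicate 1 and averaged 12.8 RPKM in *Or47b1*, with no read in either *w1118* group, so its presence divided the genotypes and not the mutants from wild type. *Crg-1* (X, 3793223 to 3797339), a forkhead transcription factor gene first described as clock-regulated, was at 0, 0.230 and 0.383 RPKM in *Or67dGAL4* and at 232 and 180.2 RPKM in *fruLexA/fru4-40* (log2 fold change 9.93, SE 0.65, adjusted p = 3.3e-10, and 10.57 without *Or67dGAL4* replicate 3). Replicate 1 had 644 RPKM and *w1118* GH averaged 16.9 RPKM, while *Or47b1*, at a mean of 0.265 RPKM, was about as low as *Or67dGAL4*. For *Crg-1*, *fruLexA/fru4-40* thus lay above and *Or67dGAL4* below the wild type. Its neighbour *fd3F* (X, 3802316 to 3811040), a forkhead gene that directs the motile cilia of stretch-sensing neurons, showed the same order at lower levels, with 0.362, 0.220 and 0.783 RPKM in *Or67dGAL4*, 14.5 and 11.3 RPKM in *fruLexA/fru4-40* and a mean of 1.70 RPKM in *w1118* GH (log2 fold change 4.85, SE 0.59, adjusted p = 7.8e-05). Without *Or67dGAL4* replicate 3 it was 5.44. The pseudogene *CR33221*, between these neighbours (X, 3797497 to 3799028), had no read in *Or67dGAL4* and 2.22 and 1.76 RPKM in *fruLexA/fru4-40*, at least 8.63-fold higher. *Or47b1* had no read of it either, and *w1118* GH averaged 0.166 RPKM. Exons of *Crg-1* and *fd3F* each overlap an annotated noncoding RNA, and reads of overlapping genes cannot be told apart in libraries without strand.

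*dyw* (X, 2692732 to 2693886), which lies beside the clock gene *per*, was at 0.652 to 1.18 RPKM in *Or67dGAL4* and at 119 and 111 RPKM in *fruLexA/fru4-40* (log2 fold change 6.91, SE 0.28, adjusted p = 3.3e-10). Its exons overlap those of *per*, which went the other way, from 12.7 to 15.5 RPKM down to 9.31 and 9.64 RPKM (log2 fold change -0.58, SE 0.18, adjusted p = 0.040). The call of *per* was lost when any 1 of the 5 libraries was left out (adjusted p from 0.051 without *Or67dGAL4* replicate 2 to 0.20 without *fruLexA/fru4-40* replicate 2). *TrpA1* (3L, 8894404 to 8904790), a cation channel gene for warmth and irritants, was at 2.59, 2.07 and 2.83 RPKM against 16.4 and 18.3 RPKM (log2 fold change 2.80, SE 0.13, adjusted p = 1.4e-08). The *w1118* GH mean of 5.22 RPKM lay between the mutants. *Culd*, which encodes a membrane protein with CUB and LDLa domains, was at no more than 1.95 RPKM against 17.6 and 23.1 RPKM (log2 fold change 3.60, SE 0.18). *Arc1*, whose protein forms virus-like capsids and which is induced by neuronal activity, was at 11.6, 13.3 and 13.6 RPKM against 108 and 171 RPKM (log2 fold change 3.44, SE 0.19, adjusted p = 7.0e-08). Its neighbour *Arc2* had 1.33 to 2.93 RPKM against 15.3 and 14.9 RPKM (log2 fold change 2.66, SE 0.25). The *w1118* GH means were 89.2 RPKM for *Arc1* and 16.0 RPKM for *Arc2*, nearer to *fruLexA/fru4-40* than to *Or67dGAL4*, and *Or47b1* lay between with 28.8 and 10.9 RPKM.

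Several other genes higher in *fruLexA/fru4-40* were likewise near the wild-type level there. *NijC*, a ninjurin gene, was at 46.0 to 50.2 RPKM in *Or67dGAL4* against 183 and 162 RPKM, with 187 RPKM in *w1118* GH. *Tsp*, the thrombospondin gene, was at 0.564 to 0.869 RPKM against 7.73 and 6.75 RPKM, with 6.32 RPKM in *w1118* GH. *Tapdelta*, a subunit of the complex at the protein translocon, was at 10.2 to 13.5 RPKM against 48.8 and 47.2 RPKM, with 45.6 RPKM in *w1118* GH. In these 3 genes *Or67dGAL4* was the group that stood apart. For *pst* (*pastrel*, a gene known for variation in resistance to virus) it was *fruLexA/fru4-40*, with 185 and 181 RPKM against 59.3 to 62.2 RPKM in *Or67dGAL4* and 89.4 RPKM in *w1118* GH. *CG9287* and *CG13558*, also without a read in *Or67dGAL4*, were at 2.07 to 4.16 RPKM in *fruLexA/fru4-40* (at least 21.3-fold and 9.20-fold higher), and *CG9287* lost its call without *fruLexA/fru4-40* replicate 2. *CG9287* had no read in either *w1118* group or in *Or47b1*. *CG13558* averaged 0.0494 RPKM in *w1118* GH and had no read in *w1118* SH or *Or47b1*, so in both genes *fruLexA/fru4-40* stood apart.

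Many of the largest decreases were genes that were high in *Or67dGAL4* alone. The gene FBgn0010549 (2R, 9390165 to 9395281), which encodes an ABC transporter, was at 78.5, 78.0 and 79.6 RPKM in *Or67dGAL4* and at 0.399 and 0.449 RPKM in *fruLexA/fru4-40* (log2 fold change -7.53, SE 0.21, adjusted p = 7.7e-11). The *w1118* GH and *Or47b1* means were 0.845 and 1.25 RPKM. *CG10936* was at 16.9 to 19.2 RPKM against 1.39 and 1.11 RPKM, with 1.35 to 1.59 RPKM in the remaining groups. *CG14400* was at 400.2, 367 and 336 RPKM against 38.2 and 30.2 RPKM (log2 fold change -3.43, SE 0.11), but the *w1118* GH mean of 141 RPKM lay between the mutants. *CG6912* (3R, 15135138 to 15137004) was at 60.8, 62.7 and 56.9 RPKM against 0.927 and 1.41 RPKM (log2 fold change -5.68, SE 0.21), and here *Or47b1*, with 118 RPKM, was also high, while *w1118* GH had 1.32 RPKM. It overlaps the antisense gene *asRNA:CR45600*, which showed the same pattern. *Bmcp*, a mitochondrial carrier gene, differed less but with little scatter, at 82.2 to 92.5 RPKM against 27.0 and 25.0 RPKM (log2 fold change -1.76, SE 0.09, adjusted p = 3.6e-08). In *CG33757* and *CG4839* the *fruLexA/fru4-40* mean was below every other group mean, at 0.624 and 0.0880 RPKM. *Or67dGAL4* averaged 62.7 and 3.42 RPKM there, and *w1118* GH lay between the mutants at 19.0 and 1.57 RPKM.

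A second set among the largest decreases varied between *Or67dGAL4* libraries. *CG34220* (2R, 10041065 to 10043507) was at 1546, 47.7 and 1542 RPKM in *Or67dGAL4* replicates 1, 2 and 3 and at 2.61 and 5.03 RPKM in *fruLexA/fru4-40*. *CG34324* followed with 535, 24.3 and 579 RPKM against 0.183 and 1.49 RPKM, *Muc68D*, a mucin gene, with 118, 3.36 and 101 RPKM against 0.158 and 0.420 RPKM, and *CG3906* with 90.8, 4.67 and 121 RPKM against 0.445 and 0.226 RPKM. In all 4 genes replicate 2 of *Or67dGAL4* was the low library, and in all 4 it was still above both *fruLexA/fru4-40* libraries of the fit. *fruLexA/fru4-40* replicate 1, at 69.0 RPKM of *CG34220*, was above *Or67dGAL4* replicate 2. *CG14125*, the named gene with the most negative log2 fold change, was uneven in another way, with 128, 32.7 and 2.05 RPKM in *Or67dGAL4* replicates 1, 2 and 3 against 0.110 and 0 RPKM, so that replicate 3 was the low library there (adjusted p = 0.038). Its call was kept only when *Or67dGAL4* replicate 3 was the library left out, and was lost without any of the other 4, with an adjusted p of 0.20 without *fruLexA/fru4-40* replicate 2. The log2 fold change of *Muc68D* was -7.99 and became -8.88 without *fruLexA/fru4-40* replicate 3, *CG34324* lost its call without *fruLexA/fru4-40* replicate 2, and *CG3906* without either *fruLexA/fru4-40* library. The paralogs *Amy-p* and *Amy-d*, digestive amylase genes that share most of their sequence and whose reads may have been split between them, were also uneven, with 50.5, 7.75 and 31.7 RPKM of *Amy-p* against 3.51 and 1.67 RPKM, and both calls were lost without either *fruLexA/fru4-40* library. The summed level of 15 gut markers, which include both amylase genes, ran from 72.4 to 230.1 RPKM in *Or67dGAL4* and from 73.2 to 86.1 RPKM in *fruLexA/fru4-40*, and its part in these genes was not tested.

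**Figure D3:**
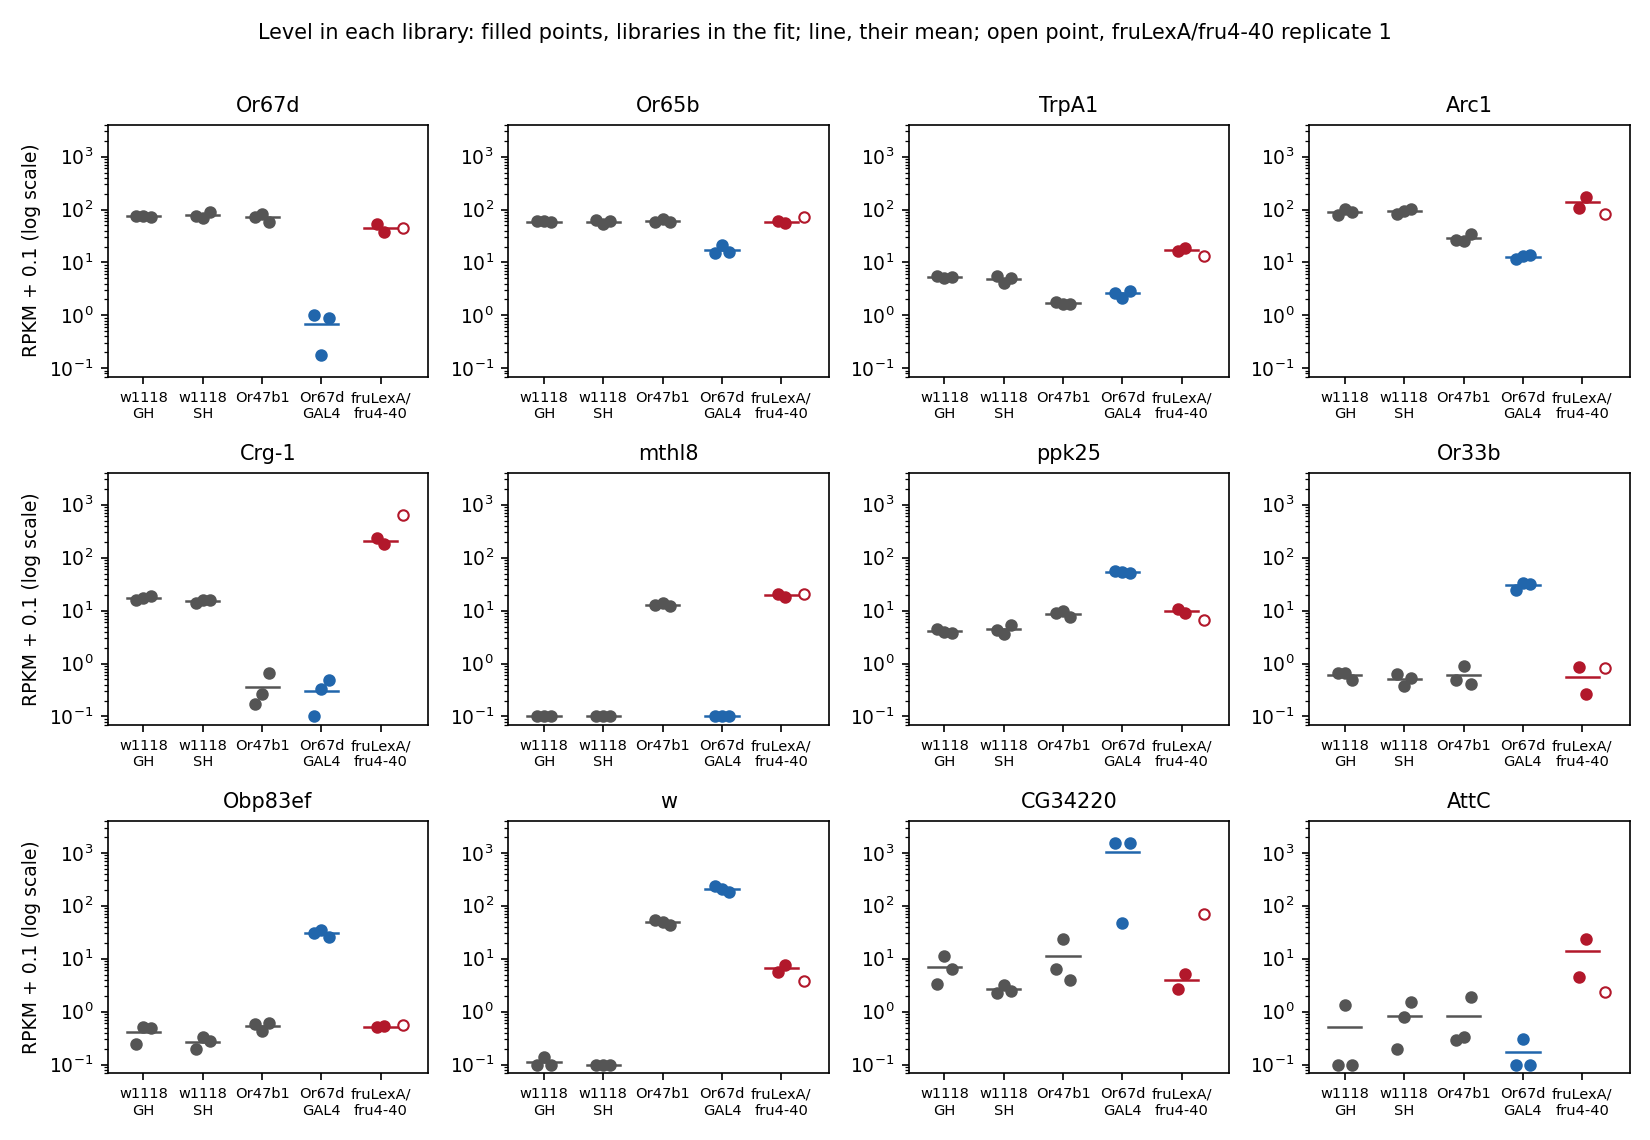
Level of 12 genes (RPKM + 0.1, log scale) in every library by genotype, with filled points for libraries in the fit, a line at their mean and an open point for *fruLexA/fru4-40* replicate 1. *Or67d* is lost from *Or67dGAL4* alone, *ppk25*, *Or33b* and *Obp83ef* are high there alone, and the *Or67dGAL4* points of *CG34220* split into 1546, 47.7 and 1542 RPKM.

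Among receptors of the FruM-positive neurons other than *Or67d*, *Or47b* was lower in *fruLexA/fru4-40* and *Ir84a* did not pass the test. *Or47b*, the at4 receptor for fatty acid pheromones, was at 133, 115 and 106 RPKM in *Or67dGAL4* and at 83.9 and 75.5 RPKM in *fruLexA/fru4-40* (log2 fold change -0.57, SE 0.10, adjusted p = 0.0020), with 52.8 RPKM in replicate 1 and 128 RPKM in *w1118* GH. In whole antennae, fewer neurons of a type and less RNA in each neuron cannot be told apart. *Ir84a*, the receptor of courtship-promoting food odours, was at 20.9 to 25.7 RPKM and 18.8 to 19.4 RPKM (log2 fold change -0.27, SE 0.16, adjusted p = 0.24). *Or65b*, a receptor of a neuron that shares the at4 sensillum, was higher, with 14.7, 21.1 and 15.5 RPKM in *Or67dGAL4* against 61.2 and 55.7 RPKM in *fruLexA/fru4-40* (log2 fold change 1.77, SE 0.13, adjusted p = 8.6e-07). *w1118* GH averaged 58.9 RPKM, so it was *Or67dGAL4* that was low. Its similar neighbours *Or65a* and *Or65c*, with which reads may be shared, had log2 fold changes of 0.18 (adjusted p = 0.20) and 0.54 (adjusted p = 0.034), and the call of *Or65c* was lost when any library but *Or67dGAL4* replicate 1 was left out.

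*Or33b* (2L, 11936181 to 11937501), a receptor of small basiconic sensilla, was at 24.9, 33.3 and 31.7 RPKM in *Or67dGAL4* and at 0.746 and 0.169 RPKM in *fruLexA/fru4-40* (adjusted p = 6.6e-07). The log2 fold change was -7.41 without *fruLexA/fru4-40* replicate 2 and -5.34 without replicate 3. All other genotypes averaged about as little as *fruLexA/fru4-40*, with 0.507 RPKM in *w1118* GH. Its neighbour *Or33a* was at 1.44 to 4.35 RPKM and 2.11 to 2.49 RPKM (adjusted p = 0.37). The share of tested receptors that changed was 37.5% in small and 55.6% in large basiconic sensilla. It was 43.8% for receptors of coeloconic sensilla, sacculus and arista, beside 24.2% over all tested genes. In the small basiconic list as a whole, 2 of 16 tested members were higher and 4 lower, with a median log2 fold change of -0.14 beside 0.03 over all tested genes, and *Or47a* (log2 fold change -0.72, SE 0.12) and *Or67b* (-0.70, SE 0.14) were the other members that passed in each leave-out. Of 9 tested large basiconic receptors 3 were higher and 2 lower, and none of these calls held in each leave-out. *Or85a* (0.62, SE 0.12) and *Gr63a*, a subunit of the carbon dioxide receptor (0.50, SE 0.10), lost their calls without *fruLexA/fru4-40* replicate 2. *Or43a* (-0.55, SE 0.10) and *Or19b* (-0.74, SE 0.13), the latter nearly identical to *Or19a* (0.41, adjusted p = 0.11), were the at3 and intermediate receptors that were lower in each leave-out. Of 16 receptors of coeloconic sensilla, sacculus and arista, 2 were higher and 5 lower, and the lower acid receptors *Ir75b* (-0.70, SE 0.11) and *Ir75c* (-0.73, SE 0.16) passed in each leave-out. The co-receptor *Orco* was at 1097 to 1288 RPKM and 983 to 1110.3 RPKM (log2 fold change -0.19, SE 0.09, adjusted p = 0.13), and DESeq2 on all groups gave an adjusted p of 0.029. Replicate 1 had 616 RPKM.

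Proteins of the sensillum fluid and membrane differed in both directions. Among tested odorant-binding protein genes 41.9% changed, beside 24.2% of all tested genes. Of 31 tested odorant-binding protein genes, 9 were higher in *fruLexA/fru4-40* and 4 lower, with 5 and 4 of these passing in each leave-out. *Obp28a* was at 1935 to 2536 RPKM in *Or67dGAL4* against 3703 and 3748 RPKM (log2 fold change 0.78, SE 0.10, adjusted p = 2.1e-04), and *Obp59a*, which is known from humidity sensing, at 657 to 731 RPKM against 1019 and 1061 RPKM (0.60, SE 0.07). Of the 4 decreases, 3 came from a gene cluster on 3R. *Obp83ef* was at 30.5, 34.9 and 26.1 RPKM in *Or67dGAL4* against 0.420 and 0.427 RPKM (log2 fold change -6.13, SE 0.37, adjusted p = 5.1e-08), *Obp83g* at 20.3, 13.6 and 11.8 RPKM against 0.831 and 0.507 RPKM (-4.47, SE 0.58) and *Obp83cd*, whose exons overlap those of *Obp83ef*, at 9.09, 6.40 and 7.07 RPKM against 0.841 and 0.428 RPKM (-3.54, adjusted p = 6.8e-04). All 3 were below 1 RPKM on average in both *w1118* groups and *Or47b1*, so these 3 genes were high in *Or67dGAL4* alone. The fourth decrease was *Obp84a* (-0.46, SE 0.09). *lush*, which carries cis-vaccenyl acetate, was at 1406 to 1758 RPKM and 1452 to 1505 RPKM (log2 fold change -0.06, SE 0.09, adjusted p = 0.64). *Snmp1* was at 769 to 935 RPKM and 970.2 to 1082 RPKM (0.26, SE 0.08, adjusted p = 0.037), a call that was lost without *Or67dGAL4* replicate 2 or 3 or *fruLexA/fru4-40* replicate 2 (adjusted p of 0.32 without the last) and that had the opposite sign in replicate 1. Of the odour-degrading enzymes, *Cyp6a20*, a P450 gene tied to aggression and social experience, was higher in each leave-out (207 to 249.9 RPKM against 339 and 322 RPKM, 0.52, SE 0.08). Both mutants were far below the *w1118* GH mean of 824 RPKM.

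Pickpocket genes encode sodium channel subunits of the DEG/ENaC family, and several act in pheromone-sensing neurons. Of 15 tested members 1 was higher and 4 lower, a share of 33.3% beside 24.2% over all tested genes. *ppk25*, which amplifies the response of Or47b neurons to pheromone, was at 55.8, 52.9 and 50.4 RPKM in *Or67dGAL4* and at 10.8 and 8.89 RPKM in *fruLexA/fru4-40* (log2 fold change -2.43, SE 0.14, adjusted p = 1.6e-07). The mean was 3.95 RPKM in *w1118* GH and 8.63 RPKM in *Or47b1*, so *Or67dGAL4* was the group that stood apart. *ppk14* (-2.82, SE 0.33) and *ppk7* (-1.91, SE 0.29) were lower too, at 2.49 to 3.51 RPKM in *Or67dGAL4* and at 0.312 to 1.00 RPKM in *fruLexA/fru4-40*, but here the *w1118* GH means of 4.61 and 4.22 RPKM stood with *Or67dGAL4*. *ppk9* was at 1.72 to 2.22 RPKM against 0 and 0.106 RPKM (adjusted p = 0.0044), and it was the lower member that did not pass in each leave-out. *ppk19* was the member that was higher. The courtship subunits *ppk23* and *ppk29* did not pass the test. *ppk29* was at 2.00 to 2.66 RPKM and 1.85 to 2.14 RPKM (adjusted p = 0.47), and *ppk23* was at 0.148 to 0.726 RPKM and at 0 and 1.78 RPKM (adjusted p = 0.71). Of 15 TRP, Piezo and TMC channels *TrpA1* alone was higher and 3 were lower, and of 25 voltage-gated, leak and rectifier channels 2 were higher and 4 lower. The shares that changed, 26.7% and 24.0%, were near the 24.2% over all tested genes.

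Several genes of synaptic transmission were lower in *fruLexA/fru4-40*, most by small steps. Of 14 acetylcholine signalling genes 5 were lower (35.7%, beside 11.1% of all tested genes) and none higher, with a median log2 fold change of -0.80. The count was 3 without *Or67dGAL4* replicate 2 or without either *fruLexA/fru4-40* library, and 2 of the 5 had the same sign in replicate 1. The muscarinic receptors *mAChR-B* (23.5 to 25.6 RPKM against 11.8 and 11.8 RPKM, -1.04, SE 0.08, adjusted p = 2.8e-06) and *mAChR-A* (12.0 to 13.5 RPKM against 6.50 and 7.09 RPKM, -0.93, SE 0.09) passed in each leave-out, and replicate 1 was between the groups at 16.9 and 11.8 RPKM. Acetylcholinesterase, *Ace*, was lower in the fit (-0.57, SE 0.13, adjusted p = 0.011), but replicate 1 was at 137 RPKM, above all *Or67dGAL4* libraries at 60.9 to 89.6 RPKM, and the log2 fold change was 0.06 when replicate 1 entered the fit. It also lost its call without *fruLexA/fru4-40* replicate 2. Of 18 synaptic vesicle and active zone genes 6 were lower (33.3%, beside the same 11.1%) and 1 higher. None of the 6 lower genes kept its sign in replicate 1. *nSyb*, the neuronal synaptobrevin gene, was at 241 to 311 RPKM, at 243 and 217 RPKM, and at 553 RPKM in replicate 1. The count of lower synaptic genes was 2 without either *fruLexA/fru4-40* library, 3 without *Or67dGAL4* replicate 2, 4 without replicate 3 and 9 without replicate 1. Of 15 glutamate signalling genes 3 were lower and of 10 GABA signalling genes 2 were lower, with none higher in either list. These 5 genes had the same sign in replicate 1, but no call held in each leave-out. Of 12 amine receptor genes 1 was higher and 3 lower, a share of 33.3% beside 24.2% over all tested genes. The serotonin receptor *5-HT2A* was near 0 in both mutants, at 0.0604 to 0.131 and 0.175 to 0.213 RPKM, against a *w1118* GH mean of 23.5 RPKM. Of 50 cell recognition genes of the dpr, DIP, beat and side families 1 was higher and 4 lower, shares below those of all tested genes in each direction.

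**Figure D4:**
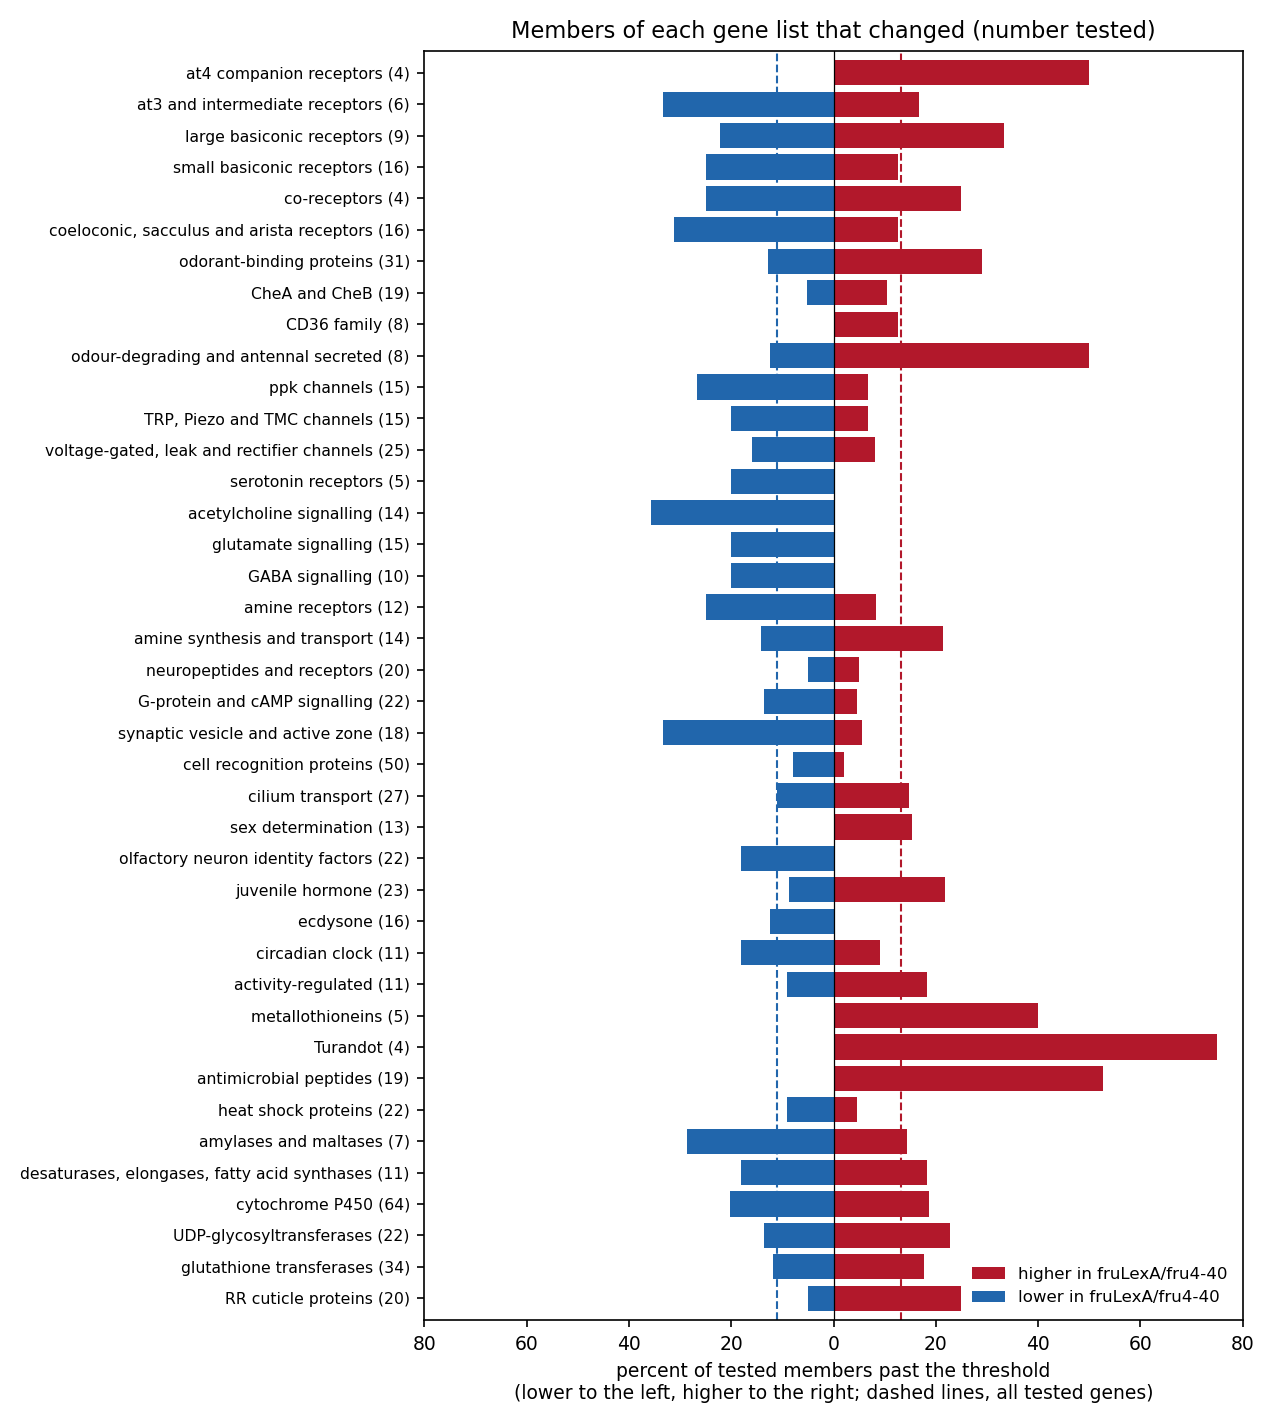
Percent of the tested members of each gene list (number tested in brackets) that were higher (right) or lower (left) in *fruLexA/fru4-40*, with dashed lines at 13.1% and 11.1% for all tested genes. Antimicrobial peptides and Turandot genes extend farthest to the right, and acetylcholine and synaptic genes extend to the left of the line.

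Immune effector genes held calls in 1 direction, and many of them rested on single libraries. Of 19 tested antimicrobial peptide genes 10 were higher, none lower and 9 did not pass. Of 4 Turandot genes, which encode humoral stress proteins, 3 were higher. The shares higher were 52.6% and 75.0%, beside 13.1% of all tested genes. The median log2 fold changes were 1.40 and 4.94. The attacin gene *AttC* had no read in *Or67dGAL4* replicates 1 and 3 and 0.210 RPKM in replicate 2, against 4.31 and 23.8 RPKM in *fruLexA/fru4-40* (adjusted p = 0.0067). The diptericin gene *DptB* was at 0, 0 and 0.787 RPKM against 6.11 and 27.8 RPKM (adjusted p = 0.0089), and *TotM* at 0, 0.171 and 0.427 RPKM against 2.74 and 57.3 RPKM (adjusted p = 0.0015). *TotC* and *TotA*, close paralogs, were at 0.356 to 3.33 and 1.79 to 15.3 RPKM against 52.1 and 126 and 60.6 and 162 RPKM. Replicate 3 of *fruLexA/fru4-40* was thus above replicate 2 in each of these genes, and replicate 1 was lower than both, with 2.24 RPKM of *AttC*, 1.80 RPKM of *DptB* and 8.38 RPKM of *TotC*, still above the *Or67dGAL4* mean. *AttC*, *DptB* and *TotM* lost their calls without replicate 3 (adjusted p of 0.080, 0.12 and 0.076). The count of higher antimicrobial peptide genes was 2 without *fruLexA/fru4-40* replicate 3, 6 without replicate 2 and 6 without *Or67dGAL4* replicate 2, and no member passed in each leave-out, whereas *TotC* and *TotA* did, with log2 fold changes of 5.87 and 4.01 that ran from 5.05 to 6.98 and from 3.09 to 5.18 without *fruLexA/fru4-40* replicate 3 or *Or67dGAL4* replicate 3. The most abundant member, *Drsl5*, was at 1198 to 1480.3 RPKM against 2198 and 2102 RPKM, with 1817 RPKM in *w1118* GH. *BomS1*, the member with the smallest p, was at 3.92 to 6.85 RPKM against 15.7 and 15.2 RPKM. Both mutants were far below its *w1118* GH mean of 166 RPKM. The summed fat body and hemocyte lists overlapped between the mutants (hemocyte markers 23.5 to 48.4 RPKM against 13.9 to 36.6 RPKM in *fruLexA/fru4-40*), and their part in the immune genes was not tested.

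Enzymes of oxidation and conjugation, which clear odours and toxins, changed in both directions. The share that changed was 39.1% of tested P450 genes and 36.4% of tested UDP-glycosyltransferases, beside 24.2% of all tested genes. Of 64 tested P450 genes 12 were higher and 13 lower, and 16 of these passed in each leave-out. *Cyp4p1* was at 486, 416 and 453 RPKM in *Or67dGAL4* against 99.7 and 79.0 RPKM (log2 fold change -2.34, SE 0.14, adjusted p = 3.6e-07), near the *w1118* GH mean of 102 RPKM. *Cyp9b1* was at 141 to 147 RPKM against 32.4 and 30.1 RPKM (-2.20, SE 0.12), and *Cyp6a13* went the other way, at 9.48 ± 0.743 RPKM (SD, n = 3) against 28.4 ± 0.622 RPKM (SD, n = 2) (log2 fold change 1.58, SE 0.08). Of 22 UDP-glycosyltransferases 5 were higher, all in each leave-out, and 3 lower. *Ugt49C1* was at 204 to 244 RPKM against 483 and 446 RPKM (1.06, SE 0.08) and *Ugt49B1* at 109 to 139 RPKM against 289 and 273 RPKM (1.15, SE 0.10). Of 34 glutathione transferases 6 were higher and 4 lower, a share of 29.4% beside 24.2% over all tested genes. The lower ones included *GstD3* (45.6 to 56.1 RPKM against 12.7 and 11.9 RPKM, -2.02, SE 0.12). Of 23 juvenile hormone genes 5 were higher and 2 lower, a share of 30.4% beside the same 24.2%. The 5 were genes of the Jhbp family, named for juvenile hormone binding, their count was 2 without *fruLexA/fru4-40* replicate 2, and *Jhbp11* was at 181 to 195 RPKM against 399.6 and 381 RPKM (1.05, SE 0.15). The related gene *to* (*takeout*), an output of the circadian clock, was at 1507, 1375 and 913 RPKM against 2844 and 2403 RPKM (1.05, SE 0.17, adjusted p = 8.0e-04). The core clock genes *tim* and *Clk* did not pass the test (adjusted p of 0.70 and 0.83).

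Levels in the other groups show where the 2 mutants lay among the genotypes. Of the 114 genes that were at least 4-fold lower in *fruLexA/fru4-40*, the *w1118* GH mean was nearer to *fruLexA/fru4-40* in 90 (78.9%) and the *Or47b1* mean in 84 (73.7%). In 76 of the 114 (66.7%) all 3 *Or67dGAL4* libraries were above every other library of the fit, and in 18 (15.8%) both *fruLexA/fru4-40* libraries were below every other. Of the 152 genes that were at least 4-fold higher, the *w1118* GH mean was nearer to *Or67dGAL4* in 90 (59.2%), both *fruLexA/fru4-40* libraries were above every other library in 73 (48.0%), and the *Or67dGAL4* libraries were below every other in 38 (25.0%). Over all tested genes that were higher in *fruLexA/fru4-40*, called or not, these shares were 16.9% for *fruLexA/fru4-40* and 8.04% for *Or67dGAL4*, and over all that were lower they were 18.1% for *fruLexA/fru4-40* and 9.63% for *Or67dGAL4*. The 15.8% of large decreases with *fruLexA/fru4-40* below every other library was thus near the share over all tested genes. Among all 1149 lower genes, most of them small changes, *fruLexA/fru4-40* was below every other library in 46.2% and *Or67dGAL4* above every other in 25.8%. A group of 2 libraries lies beyond all others more easily than a group of 3. The shares of the 2 mutants therefore cannot be ranked against each other, only each against its own share over all tested genes. Over all 2506 changed genes the *w1118* GH mean was nearer to *fruLexA/fru4-40* in 1087 (43.4%), beside 45.7% of all tested genes. The 2 mutants themselves chose these genes, so the shares describe the levels and carry no test.

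**Figure D5:**
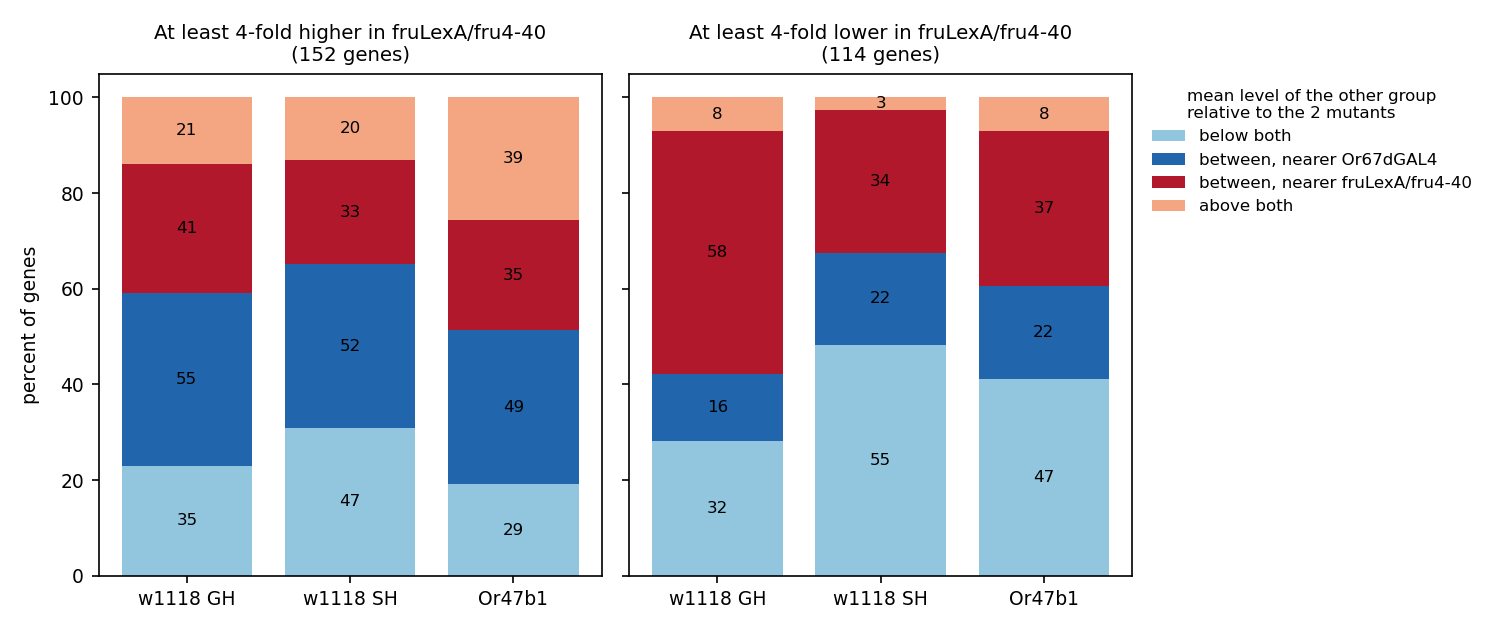
Percent of genes (number of genes printed in each bar) by where the mean level of *w1118* GH, *w1118* SH or *Or47b1* lay relative to the 2 mutants, for the 152 genes at least 4-fold higher (left) and the 114 genes at least 4-fold lower (right) in *fruLexA/fru4-40*. Among the lower genes, the *w1118* GH mean lay between the mutants and nearer to *fruLexA/fru4-40* in 58 and below both in 32.

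The changed genes were spread over the chromosomes. The share of tested genes that changed was 22.9% on X, 24.2% on 2L, 25.8% on 2R, 25.7% on 3L and 23.2% on 3R, and 10 of 93 genes (10.8%) on the small chromosome 4. Within 1 Mb of *Or67d* 53 of 180 tested genes changed (29.4%) and within 1 Mb of *fru* 34 of 150 (22.7%), with 28 higher and 25 lower in the first region and 17 in each direction in the second. Near *Or67d*, *CG42526*, whose exons overlap those of *MTF-1*, was at 1.70 to 2.36 RPKM in *Or67dGAL4* against 19.1 and 13.9 RPKM (log2 fold change 2.95, SE 0.22), and the peptidoglycan receptor genes *PGRP-LA* (0.90, SE 0.11) and *PGRP-LC* (0.53, SE 0.07), which act in bacterial sensing, were higher as well. *GlcAT-P*, a glucuronyltransferase gene (44.9 to 53.0 RPKM against 30.4 and 28.1 RPKM, -0.74, SE 0.08), and the scarce *lncRNA:CR46003*, which starts 34.8 kb from *Or67d* (0.207 to 0.466 RPKM against 0.00449 and 0.00913 RPKM, -5.42, SE 0.75), were lower. *PGRP-LC* was at 38.5 to 42.0 RPKM against 59.7 and 54.8 RPKM, with 54.2 RPKM in replicate 1 and 54.9 RPKM in *w1118* GH. Near *fru*, *CG5835* (12.7 to 13.9 RPKM against 35.0 and 30.5 RPKM, 1.29, SE 0.16) and *Sgsh*, a sulfohydrolase gene (log2 fold change 1.14, SE 0.18), were higher, and *fray*, a kinase gene (33.2 to 34.5 RPKM against 25.1 and 24.2 RPKM, -0.47, SE 0.07), *Nnk* (-1.09, SE 0.16) and *CG31122* (-0.59, SE 0.10) were lower. In replicate 1 *fray* was at 35.1 RPKM and *CG31122* at 51.4 RPKM, above all *Or67dGAL4* libraries. The control genes *Act5C*, *Polr2F*, *fl(2)d* and *wkd* did not pass the test (log2 fold changes of -0.13, 0.17, 0.05 and 0.07). *Gapdh2* did by a small margin (0.21, SE 0.06, adjusted p = 0.017), with the opposite sign in replicate 1 and no call with RLE size factors.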

How the data were processed

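Reads per gene had been counted by the authors and were deposited as raw counts without normalization. Per the methods and the submitters' processing notes, reads from unstranded libraries were trimmed with FASTP, mapped to dm6 with MapSplice2, cleared of duplicates, filtered for mapping quality and pairing with SAMtools and assigned with featureCounts. Tool versions are not given in the sources used here. Of 17490 genes, 17288 were named from the Ensembl annotation and 17144 had the same position there.

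Counts of 14 libraries in 5 groups were fitted with edgeR 4.0.16 in R 4.3.3 (filterByExpr, TMM, quasi-likelihood, Benjamini-Hochberg adjustment over 10358 genes, threshold 0.05), with the contrast *fruLexA/fru4-40* minus *Or67dGAL4*. All groups share 1 estimate of the spread (common biological coefficient of variation 0.151). The smallest library held 8570425 counts. A group with no library above 3 counts gives a lower bound of the fold. It is computed against 3 counts in the library of that group where 3 counts weigh most. Bounds cover counting error only. Levels of replicate 1 were scaled with all 15 libraries. The script was tested on simulated data. Tables and figures used Python 3.11.15, pandas 2.3.3, numpy 2.4.6 and matplotlib 3.10.9.

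Genes named were taken from the 12 largest and the 12 most significant changes in each direction. The largest were ranked among non-overlapping genes with a mean of at least 1 RPKM in 1 mutant. Up to 4 changed members of each list with the smallest p were added, and up to 5 changed genes near *Or67d* and *fru*. The mutated, receptor and control genes were added whether or not they passed. Not every gene of these sets is described in the text, while counts of named genes cover all of them. *Obp83cd*, *ppk9*, *5-HT2A*, *Drsl5*, *elav*, *ninaE*, *tim* and *Clk* were chosen after their values were seen. The comparison and the gene lists were chosen with earlier results of these data known. Alternatives were DESeq2 1.42.0, other samples, scalings, filters and thresholds, and leaving out libraries.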

Additional observations from a re-analysis of the deposited data

How the results depend on the processing

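Depth and replication limit the comparison, since 2 libraries stand for *fruLexA/fru4-40* and small changes cannot be placed firmly. The 2506 changed genes (1357 higher, 1149 lower) became 1266 (533, 733) with DESeq2 on the 2 groups, 998 (500, 498) with edgeR on the 2 groups, 1140 (616, 524) with all 15 samples, 1119 (599, 520) at a threshold of 0.01 and 572 (332, 240) with a fold of at least 2. Leaving out single libraries gave 974 to 2905 changed genes, 508 to 1519 higher and 466 to 1386 lower. Fits that leave 1 *fruLexA/fru4-40* library assume that it varies like the other groups. DESeq2 on all groups called 2498 genes, with 990 higher (39.6%), and a minimum of 10 counts in every sample gave 1018 higher of 2379 (42.8%). Changed genes whose direction and call were kept numbered 2104 of 2506 with DESeq2 on all groups and 2254 with RLE size factors. No changed gene was called in the opposite direction in any of the 19 alternatives. Those that only move the threshold or add a fold cannot give an opposite call, and the others share most of their libraries with the main fit. Replicate numbers were not treated as pairs. The correlation of deviations was 0.156 for number 2 and -0.004 for number 3. Deviations of 2 *fruLexA/fru4-40* libraries from their mean mirror each other, so these values cannot exclude pairing. With the number as a block 2789 genes changed. With all 15 samples the sign turned for 10 of the named genes that had passed the threshold, all without a call there, with log2 fold changes of 0.30 (*sgg*), 0.04 (*Plc21C*), 0.07 (*Liprin-alpha*), 0.10 (*Pka-C1*), 0.06 (*Ace*), 0.17 (*Eip74EF*), 0.26 (*Syn*), 0.07 (*kay*), 0.08 (*beat-VII*) and 0.26 (*nSyb*). It also turned for 10 named genes that had not passed it, among them *fru* (0.43) and *dsx* (0.13). Of 200 named genes past the threshold, 89 stayed past it in every alternative that gave a value. The cause of these shifts was not tested.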

Other observations

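Some changed genes of other lists were not described above. Of 27 tested genes of cilium transport 4 were higher and 3 lower, 25.9% beside 24.2% over all tested genes. Apart from *fd3F* none of these calls held in each leave-out. Of 13 sex determination genes *tra2* (log2 fold change 0.35, SE 0.10) and *her* (0.31, SE 0.09) were higher, both without a call when *fruLexA/fru4-40* replicate 2 or *Or67dGAL4* replicate 2 was left out. The share of 15.4% higher was near the 13.1% over all tested genes. Of 20 tested cuticle protein genes of the RR family 5 were higher and 1 lower, a share of 30.0%. *Cpr66D* was at 0.427 to 0.790 RPKM in *Or67dGAL4* against 9.85 and 8.62 RPKM in *fruLexA/fru4-40*, with 0.303 RPKM in *w1118* GH (3.98, SE 0.71, adjusted p = 0.0016). The metallothionein gene *MtnB* was at 2.82 to 3.55 RPKM against 11.3 and 9.55 RPKM (1.70, SE 0.21), both below the *w1118* GH mean of 41.1 RPKM.

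The amine enzyme gene *amd* was at 112, 104 and 128 RPKM in *Or67dGAL4* against 59.5 and 71.4 RPKM in *fruLexA/fru4-40* (log2 fold change -0.81, SE 0.16, adjusted p = 0.0035), and lost its call without *fruLexA/fru4-40* replicate 2. The taste receptor gene *Gr43a*, a fructose sensor, was at 0.0771 to 0.371 RPKM against 2.11 and 2.71 RPKM (3.36, SE 0.49, and 3.96 without *Or67dGAL4* replicate 2), and *Gr64f*, a sugar receptor subunit, at 24.8 to 30.1 RPKM against 43.9 and 41.5 RPKM (0.65, SE 0.08). The summed list of 9 taste organ markers was 30.1 to 34.4 RPKM and 47.5 to 49.6 RPKM, so it moved with these 2 genes, which belong to it.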
